A study of Homo sapiens with 9 samples.

Results

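The replication-dependent histone genes were described here in RNA-seq libraries of U87 cells, an established human glioblastoma line, and of the radioresistant GSCs and Diff cells derived from it. The genes were chosen by symbol and by level. A gene was a member when its symbol was that of a clustered H1, H2A, H2B, H3 or H4 gene and when its TPM (a transcript level corrected for gene length and for the total of the library) exceeded 1 in at least 1 of the 9 libraries. Of 60606 genes in the table, 66 had such a symbol and 56 were members. They were 5 H1, 13 H2A, 16 H2B, 12 H3 and 10 H4 genes, of which 48 lie on chromosome 6 and 8 on chromosome 1. The 10 genes left out included 4 that were listed at 0 in every library. Closest to the limit were H1-6, with a highest TPM of 0.920, and H2AC7, with 0.848, outside it, and H2AC17, with 1.03, and H4C12, with 1.07, inside it. Of the members, 48 exceeded 1 TPM in all 9 libraries, so the rule on level rarely depended on a single cell line.

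Each cell line had 3 libraries. U87 cells were grown in medium with 10% FBS and were not irradiated. GSCs were glioblastoma stem cells derived from U87 and kept in serum-free DMEM/F12 and B27 plus the growth factors EGF and bFGF (20 ng/ml). They had been irradiated 13 times at 5 Gy. Diff cells came from these irradiated GSCs by differentiation in DMEM with 10% FBS and were picked from clonal communities. GSCs therefore differed from U87 in irradiation, derivation and medium, and Diff cells differed from U87 in irradiation, derivation and clonal picking. An irradiated culture that was never a GSC, and GSCs without irradiation, were not analysed here. All 3 lines derive from 1 cell line, and nothing in the labels states whether the libraries of a line came from separate cultures, so the p-values measure the spread between these libraries, which may be technical. VIM, an intermediate filament of mesenchymal cells, averaged 1640, 1214 and 616 TPM in U87, GSCs and Diff, and GFAP, an astrocyte filament, 2.29, 0.809 and 0.909 TPM. The means of the neural stem cell markers SOX2 and PROM1 stayed below 1 TPM in every line, GSCs included, but both were highest in GSCs, at 0.879 and 0.507 TPM, with no overlap with the other lines. FABP7, a lipid-binding protein of neural progenitors, averaged 0.731, 4.91 and 2.86 TPM and rose by 1.77 in GSCs against U87 (adjusted p = 2.7e-05). NES, a further stem cell marker, went the other way. It averaged 33.0, 22.6 and 13.5 TPM and fell by 0.53 in GSCs against U87 (adjusted p = 0.00047). CD44 and OLIG2 did not pass the test there, at 0.07 (adjusted p = 0.41) and 0.23 (adjusted p = 0.22).

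Histones package DNA. Pairs of H2A, H2B, H3 and H4 form the nucleosome core, and H1 binds the linker DNA between cores. Cells make most of this protein in S phase, when DNA is copied, from clustered genes without introns. The mRNAs of these genes usually end in a conserved stem-loop in place of a poly(A) tail. The stem-loop is bound by SLBP, the mRNAs are cut behind it with the help of the U7 snRNP, and they are degraded rapidly when DNA synthesis stops. Several of the genes can also give longer, polyadenylated transcripts, mainly outside S phase and in cells that stop dividing.

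The 3′ stem-loop, the sequence that sets these mRNAs apart, was found in GENCODE 29 transcripts of 24 members and 3 further genes with a matching symbol, in 5 forms. Many other histone models of that annotation hold no sequence behind the coding part. The loops are shown with the paired stem in capitals and the loop of 4 bases in lower case, in DNA letters.
H3C10, H2BC13, H2BC21 and 12 other genes: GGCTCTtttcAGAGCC
H2BC4, H2BC5, H2BC7 and H3C8: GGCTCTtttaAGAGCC
H4C2, H4C5, H4C8 and H4C11: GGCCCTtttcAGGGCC
H4C9, H4C14 and H4C15: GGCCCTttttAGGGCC
H2AC11: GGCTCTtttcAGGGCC
The H4 forms thus shared 1 stem and the H2A, H2B and H3 forms another, apart from H2AC11, which has the left arm of the H2A form and the right arm of the H4 form.

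Promoters of 51 members were found in the RefSeq table (GRCh38.p14), and 250 bases before the start site were searched on both strands for the octamer ATTTGCAT, the CCAAT box (CCAAT) and the TATA box (TATAAA). The octamer stood before 9 of 12 H2A and 13 of 16 H2B genes and before none of the H1, H3 and H4 genes, against 2.0% of 27305 genes with a promoter in that table. A CCAAT box stood before each of the H1, H2A, H2B and H3 genes and before 2 of 8 H4 genes (37.0% of all genes), and a TATA box before 37 of the 51 (13% of all genes). A gene with several start sites was counted once, with a match at any of them. The promoters of 3 genes that changed in different ways below are shown, with the motifs in capitals on either strand.
H4C13, chr6:27873535-27873784, minus strand: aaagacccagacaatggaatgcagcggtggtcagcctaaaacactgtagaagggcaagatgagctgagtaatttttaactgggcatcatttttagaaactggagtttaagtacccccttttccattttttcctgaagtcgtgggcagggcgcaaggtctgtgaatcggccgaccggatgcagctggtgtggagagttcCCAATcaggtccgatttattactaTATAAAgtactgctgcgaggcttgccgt
H2BC14, chr6:27814772-27815021, plus strand: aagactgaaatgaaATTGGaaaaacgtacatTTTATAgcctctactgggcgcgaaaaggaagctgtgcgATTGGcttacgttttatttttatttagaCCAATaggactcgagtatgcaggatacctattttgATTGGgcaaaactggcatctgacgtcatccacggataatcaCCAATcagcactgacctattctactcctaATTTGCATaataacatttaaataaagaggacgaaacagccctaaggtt
H1-1, chr6:26017788-26018037, minus strand: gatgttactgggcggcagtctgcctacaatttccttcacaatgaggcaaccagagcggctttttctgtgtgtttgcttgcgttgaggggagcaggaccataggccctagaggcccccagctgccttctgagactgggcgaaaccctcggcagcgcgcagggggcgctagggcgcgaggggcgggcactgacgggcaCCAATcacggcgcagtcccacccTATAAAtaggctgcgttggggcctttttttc
The H2BC14 window holds the octamer beside CCAAT boxes in both orientations and 1 TATA box on the opposite strand, whereas the H4C13 and H1-1 windows each hold 1 CCAAT box and 1 TATA box. The promoters of H2AC12, H3C11, H3C12, H4C1 and H4C3 were not analysed here.

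The summed level of the 56 genes was highest in U87 and lowest in GSCs. In U87 it was 15744, 13491 and 16358 TPM, in GSCs 8705, 10316 and 8241 TPM and in Diff 11746, 13808 and 13555 TPM. The GSC libraries lay below all others, and the Diff libraries overlapped the lowest U87 library. The mean in GSCs was 0.598 ± 0.0931 (SD of the ratio, n = 3 and 3) times that in U87, and the mean in Diff was 0.858 ± 0.113 times that in U87. With 3 libraries a line, a two-sided exact permutation test of a single value cannot go below p = 0.10, so none is given for the sum. The 56 genes made up 1.35% to 1.64% of all TPM in U87, 0.824% to 1.03% in GSCs and 1.18% to 1.38% in Diff. In bulk libraries, fewer cells in S phase and less histone RNA per cell cannot be told apart.

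**Figure D1:**
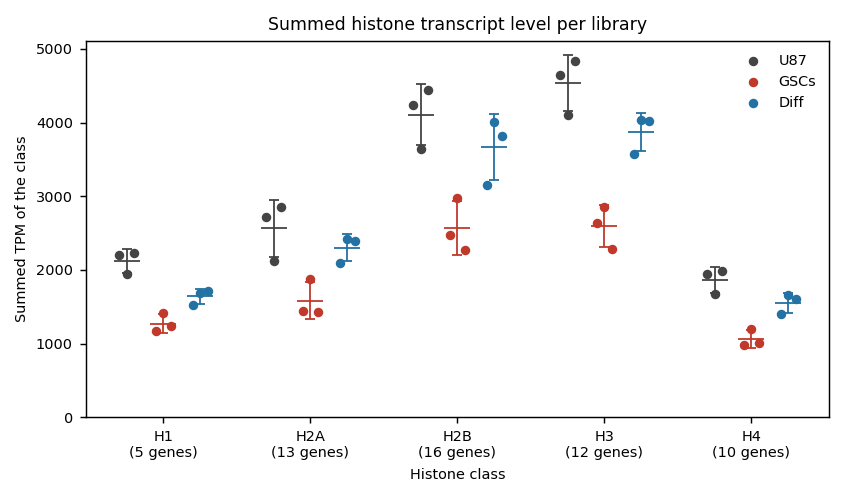
Summed TPM of the members of each histone class (x axis) in every library (points), with the mean and SD of 3 libraries as bars, for U87, GSCs and Diff. In each class the GSC points are lowest, and the GSC mean is between 0.568 times (H4) and 0.626 times (H2B) the U87 mean.

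The 5 classes moved by similar amounts, and their proportions to each other changed little. The GSC to U87 ratio of the class sums was 0.60 for H1, 0.617 for H2A, 0.626 for H2B, 0.573 for H3 and 0.568 for H4. In Diff cells the H1 genes stood lowest, at 0.773 of their U87 sum, against 0.898 for H2A, 0.892 for H2B, 0.854 for H3 and 0.832 for H4. H3 genes gave 29.8%, 28.6% and 29.7% of the members' TPM in U87, GSCs and Diff, and H1 genes 14%, 14% and 12.6%. The differences between the classes were not tested.

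Another RNA without a poly(A) tail had the same order of means as the members. RN7SL1, the RNA of the signal recognition particle, took 8.77% to 9.79% of TPM in U87, 5.73% to 7.84% in GSCs and 6.67% to 8.54% in Diff. Within GSCs and within Diff, the libraries had the same order by RN7SL1 as by the histone sum, and in U87 replicate 2 was lowest in both. RN7SL1 itself did not pass the test (log2 fold change -0.54, adjusted p = 0.052 for GSCs against U87; -0.28, adjusted p = 0.30 for Diff against U87). SNORD3A, a small nucleolar RNA also without a tail, averaged 934, 992 and 1036 TPM and showed no such order. The other 4 of the 6 listed small RNAs without a tail, RN7SL2, RN7SK, RMRP and RPPH1, were at 0 TPM in all 9 libraries. RNAs of this kind were thus not evenly represented in the values. Per 100 TPM of RN7SL1, the members gave 15.4 to 17.2 TPM in U87, 13.2 to 14.5 in GSCs and 16.2 to 17.6 in Diff. On that scale, chosen after seeing the data, the GSC to U87 ratio was 0.865 and the Diff to U87 ratio 1.04. The sample records describe removal of ribosomal RNA before library construction, and the study's methods describe enrichment of mRNA with oligo(dT), which would select against RNAs without a tail. The part of the selection step in the histone levels was not tested.

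**Figure D2:**
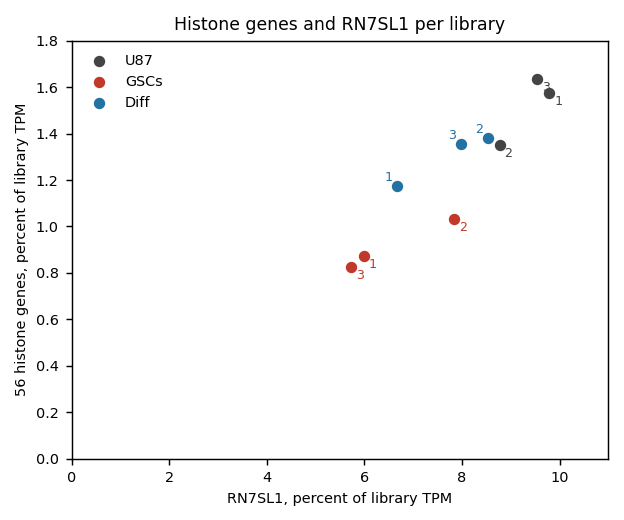
Share of library TPM taken by the 56 histone genes (y axis) against the share taken by RN7SL1 (x axis), both in percent and from 0, with 1 point per library and its replicate number. The GSC libraries, at 0.824% to 1.03% histone TPM, lie at the lower left, and 2 of 3 U87 libraries lie at the upper right.

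Of the 56 members, 51 passed the filter of a mean TPM over 1 and were tested together with all 22909 genes that passed it. The members not tested were H2AC17, H2AC18, H3C14, H3C15 and H4C12, with no library above 2.11 TPM. In each of these, 84% to 100% of the 100-base windows of the transcripts recur in another gene. Their low values need not mean low expression. A gene was called when its adjusted p was under 0.05 and its log2 fold change, on the scale of log2(TPM + 1), was beyond 1 in either direction. In GSCs against U87, 11 members were called lower and 0 higher, against 7.53% and 9.52% of all tested genes. By adjusted p alone, 45 members were lower and 0 higher, where 23.3% of all tested genes were lower and 25.3% higher. The median log2 fold change of the members was -0.73, beside 0.02 for all tested genes. Without U87 replicate 2, which had the lowest histone sum of its line, 17 members were called lower.

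In Diff against U87, 3 members were called lower and 0 higher, against 6.36% and 5.92% of all tested genes. By adjusted p alone, 11 were lower and 1 was higher, where 20.5% of all tested genes were lower and 18.9% higher. The median was -0.19, beside -0.04 for all tested genes. The count of 11 became 18 without U87 replicate 2 and 7 without Diff replicate 1, the library with the lowest histone sum among Diff cells. In Diff against GSCs, 5 members were called higher and 1 lower, against 2.66% and 5.36% of all tested genes. By adjusted p alone, 36 were higher and 1 was lower, where 15% and 19.8% of all tested genes were. The 5 became 3 without GSCs replicate 3 and 3 without Diff replicate 2. The 3 comparisons share their libraries, so they are not independent of each other. In 40 of the 51 tested members the means ran U87, Diff, GSCs from high to low, and in 8 Diff stood above U87 with GSCs lowest. These orders were not counted over all tested genes, so the counts do not show whether the members differ from other genes in this.

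**Figure D3:**
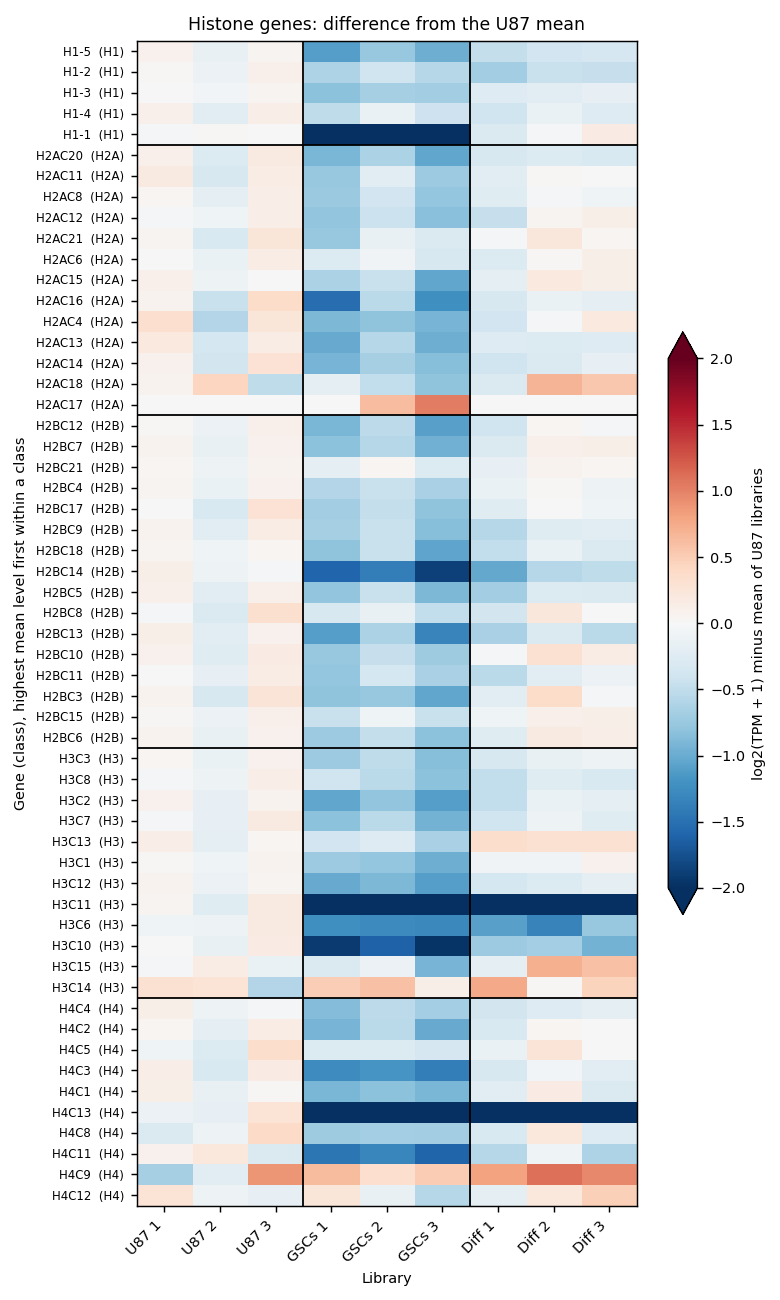
Difference of log2(TPM + 1) from the mean of the 3 U87 libraries, for each of the 56 members (rows, by class and then by mean level) and each of the 9 libraries (columns); blue is lower and red is higher than U87, and colors stop at 2 in either direction. Most rows are blue in GSCs and pale in Diff, whereas H3C11 and H4C13 are dark blue in all 6 GSC and Diff libraries.

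A pair of adjacent genes stood far outside the rest. H3C11, which codes for canonical H3, was at 209, 170 and 228 TPM in U87, at 6.65, 7.03 and 5.97 in GSCs and at 13.7, 19.1 and 15.1 in Diff. No library of one line reached the range of another. It fell to 3.24% of its U87 mean in GSCs and to 7.88% in Diff, with log2 fold changes of -4.74 ± 0.14 (SE, adjusted p = 5.1e-08) and -3.59 ± 0.14 (adjusted p = 3.3e-07). Between GSCs and Diff it rose by 1.16 ± 0.14 (adjusted p = 0.00036).

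H4C13, an H4 gene, was at 98.2, 94.6 and 129 TPM in U87, at 12, 14.5 and 5.16 in GSCs and at 0.60, 2.12 and 5.34 in Diff. Both derived lines lay below U87 throughout, but the highest Diff library lay above the lowest GSC library. The log2 fold changes were -3.32 ± 0.49 (adjusted p = 0.00057) in GSCs and -5.08 ± 0.49 (adjusted p = 5.9e-05) in Diff against U87. It was the member called lower in Diff against GSCs (-1.77 ± 0.49, adjusted p = 0.023), and this call was lost without GSCs replicate 1 or 2, without Diff replicate 1 or 2 and in a fit of these lines alone. H3C11 and H4C13 thus differed in their order across GSCs and Diff.

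By RefSeq (GRCh38.p14), H3C11 occupies chr6:27871845-27872346 and H4C13 chr6:27873148-27873534, both on the minus strand and 801 bases apart, as genes with a single exon in GENCODE 29. No 100-base window of their transcripts was shared with another gene, and no other annotated exon overlapped theirs. Their nearest histone neighbours changed as the other members did. H1-5, a linker histone gene 4256 bases from H3C11, was at 908, 772 and 890 TPM in U87 and at 396, 504 and 431 in GSCs, a log2 fold change of -0.95 (adjusted p = 6.0e-05), and changed by -0.40 in Diff against U87 (adjusted p = 0.011). H3C12, 16780 bases from H4C13 on the other side, changed by -1.0 (adjusted p = 9.6e-06) and -0.27 (adjusted p = 0.021), with 44.6% of its exon bases annotated also to H2AC17. Without H3C11 and H4C13, the median of the other 49 tested members was -0.71 in GSCs and -0.14 in Diff against U87.

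**Figure D4:**
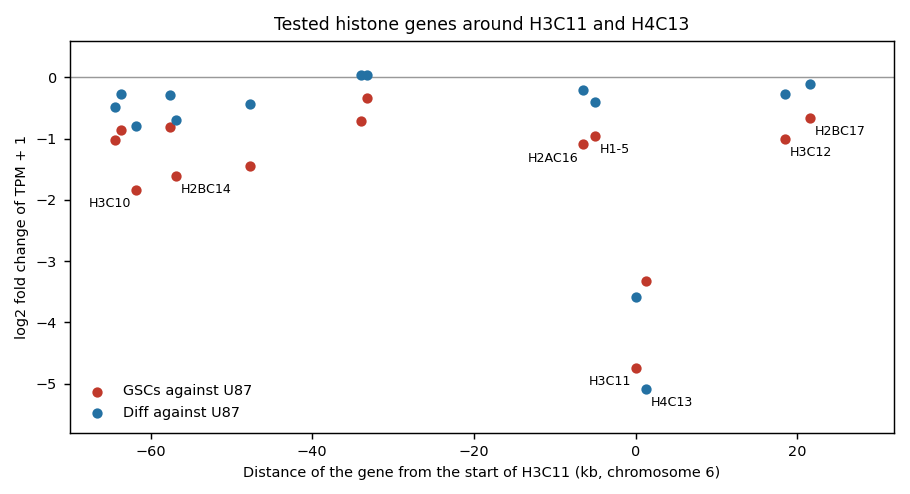
Log2 fold change of TPM + 1 against U87 (y axis) for tested histone genes near H3C11 on chromosome 6, by the distance of the gene from the start of H3C11 in kb (x axis), for GSCs and Diff; selected genes are named. H3C11 and H4C13 lie between -5.08 and -3.32 in these comparisons, and the genes on either side lie between -1.84 and 0.05.

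H1-1 fell in GSCs and was back at the U87 range in Diff. This linker histone gene is the least abundant of the 5 H1 members. It was at 79.4, 82.8 and 81.4 TPM in U87, at 16.3, 19.6 and 19.2 in GSCs and at 66.4, 78.8 and 90.6 in Diff. The GSC libraries lay far below both other lines, which overlapped. The log2 fold change was -2.09 ± 0.11 in GSCs against U87 (adjusted p = 1.1e-06), 2.03 ± 0.11 in Diff against GSCs (adjusted p = 4.7e-06) and -0.06 ± 0.11 in Diff against U87 (adjusted p = 0.72). H1-1 made up 3.84%, 1.44% and 4.77% of the H1 sum in the 3 lines.

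The other H1 genes differed from it. H1-5, the most abundant, and H1-3 fell in GSCs and rose between GSCs and Diff (H1-3: -0.73, adjusted p = 1.2e-05, and 0.51, adjusted p = 0.00026). H1-2 was at 600, 543 and 634 TPM in U87, at 387, 448 and 398 in GSCs and at 365, 435 and 430 in Diff. Both derived lines lay below U87 and overlapped each other, so H1-2, unlike most members, did not pass the test between them (log2 fold change -0.0037 ± 0.09, adjusted p = 0.98), while it fell by 0.53 ± 0.09 in GSCs and by 0.53 ± 0.09 in Diff against U87 (adjusted p = 0.0015 and 0.0019). H1-4 changed by -0.35 in GSCs with overlapping ranges (adjusted p = 0.048).

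**Figure D5:**
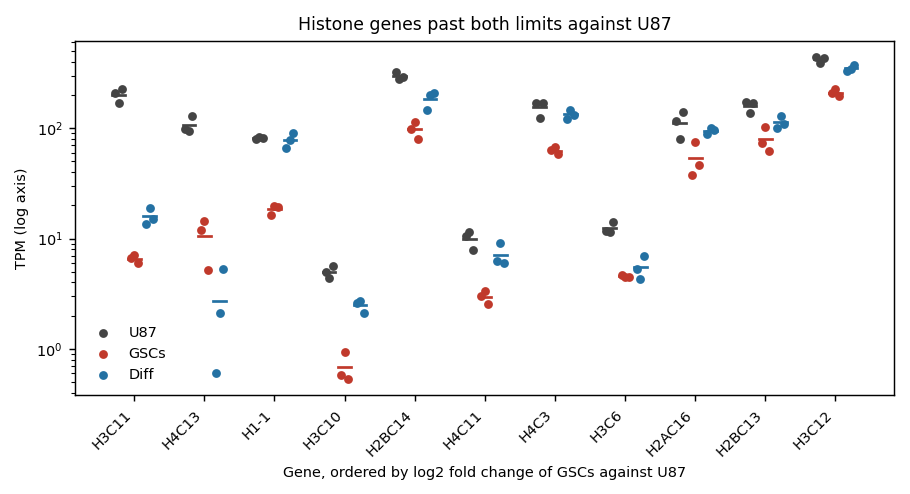
TPM on a log axis of the 11 members called in GSCs or Diff against U87, with a point per library and a line at the mean of 3 libraries for U87, GSCs and Diff. H3C11 and H4C13 are low in GSCs and Diff, H1-1 is low in GSCs and overlaps between U87 and Diff, and the remaining genes have Diff means between those of GSCs and U87.

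The H2A and H2B proteins together form the outer dimers of the nucleosome core. In GSCs against U87, log2 fold changes ran from -1.09 to -0.22 for tested H2A genes and from -1.61 to -0.14 for H2B genes. Of 11 tested H2A genes, 9 fell in GSCs against U87 and 0 passed the adjusted p limit in Diff against U87, where 23.3% of all tested genes were lower in GSCs, and 20.5% were lower and 18.9% higher in Diff. H2AC20, the most abundant, was at 848, 650 and 889 TPM in U87, at 417, 506 and 385 in GSCs and at 629, 652 and 640 in Diff. It fell by 0.86 ± 0.13 in GSCs (adjusted p = 0.00065), and its change of -0.30 in Diff missed the limit (adjusted p = 0.11). H2AC16 was the H2A gene called lower in GSCs, with a log2 fold change of -1.09 ± 0.26 (adjusted p = 0.0079). H2AC21 and H2AC6 did not pass the test there, at -0.40 and -0.22.

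Of 16 tested H2B genes, 14 fell in GSCs (23.3% of all tested genes) and 1, H2BC14, fell in Diff against U87 (20.5% of all tested genes). H2BC14 was at 322, 279 and 295 TPM in U87, at 99.0, 114 and 80.7 in GSCs and at 146, 201 and 209 in Diff. The 3 lines did not overlap, and Diff lay between the others. The log2 fold change was -1.61 ± 0.16 in GSCs (adjusted p = 4.3e-05), -0.70 ± 0.16 in Diff (adjusted p = 0.0073) against U87 and 0.91 ± 0.16 in Diff against GSCs (adjusted p = 0.0024). H2BC12 and H2BC7, the most abundant H2B genes, fell by 0.84 ± 0.16 (adjusted p = 0.0020) and 0.78 (adjusted p = 0.0014) in GSCs, and H2BC13 by 1.02 ± 0.18 (adjusted p = 0.0013). H2BC21 stood apart as nearly level, at 441, 400 and 454 TPM in U87, 377, 441 and 357 in GSCs and 385, 455 and 443 in Diff, with overlapping ranges and a log2 fold change of -0.14 ± 0.10 in GSCs (adjusted p = 0.26). The H2A and H2B genes with the octamer shown above in H2BC14 had a median of -0.66 over 21 tested genes in GSCs against U87, and those without it -0.71 over 5.

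All 10 tested H3 genes fell in GSCs against U87, and 4 of them were called, beside 23.3% and 7.53% of all tested genes. H3C3, the most abundant member, was at 931, 822 and 958 TPM in U87, at 547, 635 and 498 in GSCs and at 719, 811 and 838 in Diff, a fall by 0.69 ± 0.10 in GSCs (adjusted p = 0.00058). H3C10 was far less abundant, at 4.95, 4.38 and 5.67 TPM in U87, 0.581, 0.942 and 0.533 in GSCs and 2.60, 2.73 and 2.10 in Diff. It ended at 13.7% of its U87 mean in GSCs and 49.5% in Diff, with log2 fold changes of -1.84 ± 0.16 (adjusted p = 1.8e-05) and -0.79 ± 0.16 (adjusted p = 0.0038), which the added 1 TPM holds below the ratio of the levels. H3C6 fell in GSCs and in Diff, from 11.4 to 14.1 TPM to 4.47 to 4.66 and 4.28 to 6.90, with log2 fold changes of -1.26 ± 0.15 (adjusted p = 0.00016) and -1.06 ± 0.15 (adjusted p = 0.00061). With H3C11 and H4C13 it was the third member called lower in Diff.

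H3C13 was the member higher in Diff than in U87 by adjusted p, among 9 tested members with a log2 fold change above 0 there. It codes for an H3 protein on chromosome 1 and was at 473, 384 and 445 TPM in U87, at 330, 362 and 274 in GSCs and at 555, 537 and 536 in Diff. The 3 lines did not overlap, and the log2 fold change was -0.43 ± 0.11 in GSCs (adjusted p = 0.0096) and 0.33 ± 0.11 in Diff (adjusted p = 0.041) against U87. The second change was 0.24 to 0.39 with each library left out in turn and did not pass the adjusted p limit without U87 replicate 2 or 3, without GSCs replicate 1 or without any 1 of the Diff libraries. Of the 100-base windows, 51.3% of those in H3C13 transcripts recur in another gene. Its level can therefore include or lack reads of its copies H3C14 and H3C15. These were listed at 2.11 TPM or less, but 100% of their windows recur in another gene, so their own levels are uncertain.

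Of 9 tested H4 genes, 7 fell in GSCs, 3 of them past the fold limit, beside the same shares of all tested genes. H4C4, the most abundant H4 gene, was at 933, 804 and 851 TPM in U87, at 474, 600 and 537 in GSCs and at 665, 721 and 749 in Diff, and fell by 0.69 ± 0.10 in GSCs (adjusted p = 0.00038) and by 0.28 ± 0.10 in Diff (adjusted p = 0.047). H4C3 fell from 168, 124 and 171 TPM in U87 to 63.1, 67.2 and 58.0 in GSCs, with 122, 147 and 132 in Diff. Its log2 fold changes were -1.27 ± 0.13 in GSCs against U87 (adjusted p = 4.9e-05) and 1.08 ± 0.13 in Diff against GSCs (adjusted p = 0.00032). H4C11 had a like pattern at 7.81 to 11.5, 2.57 to 3.36 and 6.02 to 9.13 TPM (-1.45 ± 0.18, adjusted p = 0.00021), but 77.7% of its windows recur in another gene. H4C5 and H4C9 did not pass the test in GSCs, at -0.29 and 0.49, and H4C9, at 0 to 2.41 TPM, was the tested member with a change above 0 in GSCs. Without U87 replicate 3, the U87 library in which H4C9 was highest, it passed the test, with a log2 fold change of 0.93 in GSCs (adjusted p = 0.0091) and 1.40 in Diff against U87 (adjusted p = 0.0017), and it then was the single member higher than in U87 by adjusted p in GSCs and the single one called higher in Diff.

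The 7 members known for polyadenylated forms were H1-2, H2AC6, H2BC4, H2BC5, H2BC12, H2BC21 and H4C8. They had smaller changes by their median than the rest. Their median log2 fold change in GSCs against U87 was -0.56, with 5 past the adjusted p limit and 0 called. That of the 44 other tested members was -0.78, with 40 past it and 11 called. Among all tested genes, 23.3% were lower by adjusted p and 7.53% were called lower. Of the 7, H2AC6 and H2BC21 did not pass. H2BC12, H2BC5 and H4C8 fell by 0.84, 0.71 and 0.70, and H2BC4 and H1-2 by 0.56 and 0.53. In Diff against GSCs the medians were 0.29 and 0.56. On chromosome 1, the 5 tested members had medians of -0.43 in GSCs and -0.01 in Diff against U87, and 0 were called. The 46 on chromosome 6 had -0.75 and -0.20. Among all tested genes, 7.53% were called lower and 9.52% higher in GSCs, and 6.36% and 5.92% in Diff. The differences between these groups of members were not tested.

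Reads of some members could not be assigned with certainty. In 9 members more than 50% of the 100-base windows recur in another gene: H2AC13, H2AC14, H2AC17, H2AC18, H3C13, H3C14, H3C15, H4C11 and H4C12. The same held for H2AC7, H2AC19, H3C4, H4C14 and H4C15, which the rule on level left out. Low values of such genes may reflect reads that were not assigned. The sums of the H2A, H3 and H4 classes may lack such reads, which was not tested. The exon bases of H2AC15 lie wholly opposite those of H2BC15, whereas 7.2% of the exon bases of H2BC15 lie opposite another gene. The sample records name a directional kit, but the use of strand in counting is not stated, so the value of H2AC15 (a fall by 0.71 in GSCs, adjusted p = 0.0048) may include reads of H2BC15 (a fall by 0.33, adjusted p = 0.037). Without the near-identical members, 10 of 47 tested members were called lower in GSCs and 3 in Diff against U87, beside 7.53% and 6.36% of all tested genes. By adjusted p alone, 41 and 11 were lower, beside 23.3% and 20.5%. The Diff counts were near these shares.

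Histone genes of the same families that the symbol rule left out gave further values. Apart from replacement histones, 4 listed genes were tested, and each fell in GSCs against U87 (23.3% of all tested genes). H4-16, H2AW, H3-4 and H2BU1 fell by 1.08, 1.07, 0.83 and 0.81. By adjusted p, 3 of the 4 were lower in Diff against U87 as well (20.5% of all tested genes). Replacement histones are mostly made throughout the cell cycle from ordinary polyadenylated mRNAs. Among 10 tested, 5 fell in GSCs (23.3% of all tested genes). CENPA, the centromeric H3, fell by 1.60, H3-3A by 1.17, H2AZ1 by 1.07 and H2AX by 0.35, whereas H3-3B, a second gene for the same H3.3 protein, changed by -0.08 (adjusted p = 0.30). H2AX has an mRNA of both kinds, with stem-loop and with poly(A) tail, and rose by 0.39 in Diff against U87 (adjusted p = 0.022).

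Genes that make and process histone mRNA included risers and fallers. Of 23 tested, 8 rose and 5 fell in GSCs, with a median of 0.02, where 25.3% of all tested genes were higher and 23.3% lower by adjusted p. NPAT, the coactivator that switches histone genes on at the start of S phase, was at 8.36, 9.84 and 8.26 TPM in U87, at 21.1, 20.7 and 27.0 in GSCs and at 21.9, 18.4 and 18.8 in Diff, and rose by 1.28 ± 0.12 and 1.08 ± 0.12 (adjusted p = 3.6e-05 and 0.00015). SLBP, which binds the stem-loop shown above, rose by 0.45 ± 0.09 in GSCs (adjusted p = 0.0022). LSM10, a subunit of the U7 snRNP, was at 31.0, 31.2 and 39.3 TPM in U87, at 8.97, 12.5 and 10.7 in GSCs and at 24.9, 31.5 and 26.7 in Diff, and fell by 1.57 ± 0.14 in GSCs (adjusted p = 2.6e-05). Its partner LSM11 rose by 0.66, HINFP, a transcription factor for H4 genes, by 0.93, and CASP8AP2, which joins the processing complex, fell by 0.40. LSM10 and LSM11, which sit in the same particle, thus changed in opposite directions.

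Of 9 genes of histone mRNA decay, 2 rose and 2 fell in GSCs, shares near those of all tested genes (25.3% and 23.3%). ERI1, the exonuclease that trims the stem-loop, rose by 0.76, and LSM1 and LSM4 of the decapping ring fell by 0.68 and 0.53. Among 23 tested chaperones, which carry histones to DNA, 4 rose and 6 fell, beside the same shares of all tested genes, with ASF1A falling by 1.04, SSRP1 by 0.76 and RBBP4 rising by 0.75.

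The genes of mitosis and of DNA replication gave different counts. Of 19 tested genes of mitosis, 18 fell in GSCs, with a median of -1.22, and 16 rose in Diff against GSCs, beside 23.3% lower and 15% higher among all tested genes. CENPF fell by 2.45, PLK1 by 2.09 and MKI67, a proliferation marker, by 1.05, from 233 to 250 TPM in U87 to 110 to 123 in GSCs, with 230 to 238 in Diff. The summed TPM of this list ran from 2473 to 2712 in U87, 1016 to 1130 in GSCs and 1838 to 1938 in Diff, the same order as the members. Of 45 tested genes of DNA replication, 19 rose and 7 fell in GSCs, with a median of 0.16, beside 25.3% higher and 23.3% lower among all tested genes. PCNA, the replication clamp, changed by -0.03 (adjusted p = 0.80), whereas TK1 and RRM2, which supply nucleotides, fell by 1.31 and 0.61, and RPA3 rose by 0.76. Among 6 tested CDK inhibitors and RB family genes, CDKN1A and RBL2 rose by 0.42 and 0.69 and CDKN2D and RBL1 fell by 1.56 and 0.66 in GSCs. Whether the shift in mitotic genes has a part in the histone levels was not tested.

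Markers of other cell types were low. The 7 listed for immune, endothelial, epithelial, neuronal and oligodendrocyte cells summed to 21.3 to 22.1 TPM in U87, 12.3 to 14 in GSCs and 13.4 to 14.6 in Diff. Most of this was SNAP25, a synaptic gene, at 13.7 to 15.2, 2.86 to 3.11 and 6.95 to 8.29 TPM, which fell by 1.97 in GSCs and by 0.87 in Diff against U87. PTPRC, RBFOX3 and MOG, defining markers of leukocytes, neurons and oligodendrocytes, averaged at most 0.113 TPM in any line. PECAM1, an endothelial gene, rose by 0.97 in GSCs (adjusted p = 0.0056).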

How the data were processed

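Libraries of U87, GSCs and Diff cells were sequenced with paired-end reads, 3 per line. The submitters' processing notes name FastQC 0.11.9, Trimmomatic 0.39, HISAT2 2.2.1, featureCounts 2.0.5 and R 4.2.0 with the GRCh38 build. Strand use and the treatment of reads that match several genes are not given in the sources used here. Values were deposited as log2(TPM + 1), a unit that keeps no read depth, so counting error could not be computed and precision rests on the spread between 3 libraries.

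Comparisons used limma 3.58.1 (R 4.3.3; trend, 1 model of the 3 lines) over the 22909 genes with a mean TPM over 1, and p-values were adjusted by the Benjamini-Hochberg method within each comparison. A fold change on log2(TPM + 1) understates the change of low genes. The members and gene lists were chosen with earlier results of these data known. Members were matched to GENCODE 29 by Ensembl ID (53) or older symbol (3). Shared reads were judged by identical windows of 100 bases. The members named were the 4 most abundant of each class, up to 5 called per comparison and direction, those called against most of their class, those next to the limit of the rule, those with known polyadenylated forms and near-identical copies. From the other lists, up to 5 genes with the largest change and a few fixed ones were named; some of these are not reported here. H2AC15, H2AC16, H2AC21, H2BC13, H2BC15, H3C12 and H4C9 fell outside this rule and were chosen after their values were seen. Counts, sums and plots came from Python 3.11.15 with pandas 2.3.3 and matplotlib 3.10.9.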

Additional observations from a re-analysis of the deposited data

How the results depend on the processing

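The limits of these results are the 3 libraries per line, levels without read depth, an unstated number of cultures and the selection of RNA, which bears on mRNAs without a poly(A) tail. Under 2 other pseudocounts, 3 other filters, 3 other scalings, a fit without trend and a fit of only the lines compared, the counts of members stayed within 1.5 times of those reported, apart from H3C13 and H4C13. The count of members higher in Diff than in U87 by adjusted p (1, H3C13) was 0 with no filter, 0 without a trend and 0 without near-identical copies. H4C13, the member lower in Diff than in GSCs, gave 0 in the fit of these lines only. Relative to RN7SL1, an alternative chosen after seeing the data, the ratios of the summed TPM were 0.865, 1.04 and 1.21 for GSCs against U87, Diff against U87 and Diff against GSCs. Median-ratio scaling, leaving out RN7SL1 and mitochondrial genes, near-identical copies or the most abundant member moved these ratios by less than 1 SD.

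With each library left out in turn, members called lower in GSCs against U87 ranged from 8 to 17 (42 to 47 by adjusted p alone, with 0 to 1 higher), and the ratio of the summed TPM from 0.557 to 0.626. In Diff against U87, 2 to 3 were called lower and 0 to 1 higher, 7 to 18 were lower and 0 to 1 higher by adjusted p alone, and the ratio ranged from 0.812 to 0.9. In Diff against GSCs, 3 to 7 were called higher and 0 to 1 lower, 26 to 37 were higher and 0 to 1 lower by adjusted p alone, and the ratio ranged from 1.37 to 1.54. Each library that moved a count by over 1.5 times is named beside that count in the report, and the cause was not tested.

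Small changes that did not pass the test also turned direction. In Diff against U87, H2BC7 was at 0.03 under quantile normalization, 0.0101 under median-ratio scaling and 0.0223 without RN7SL1 and mitochondrial genes, H2BC21 at 0.0192, 0.0204 and 0.0326, and H2AC6 at 0.0023 under quantile normalization and 0.0071 without RN7SL1 and mitochondrial genes. In Diff against GSCs, H1-2 was at 0.0525 under median-ratio scaling and 0.0598 without RN7SL1 and mitochondrial genes. With each library left out in turn, the log2 fold change in Diff against U87 ranged from -0.165 to 0.057 for H1-1, -0.229 to 0.0229 for H2AC11, -0.203 to 0.0835 for H2AC12, -0.119 to 0.074 for H2AC6, -0.0686 to 0.0592 for H2BC21, -0.1004 to 0.107 for H2BC7, -0.188 to 0.0124 for H4C2, -0.0931 to 0.223 for H4C5 and -0.284 to 0.0726 for H4C8, and in Diff against GSCs from -0.0486 to 0.078 for H1-2.

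Same replicate numbers did not mark paired libraries: deviations from the line means of libraries with the same number correlated between -0.0416 and 0.0489 over genes, and not every library correlated best with that of its own number. With the replicate number as a block, the replicate block fit gave 0 members higher in Diff than in U87 by adjusted p in place of 1, and the other counts of members stayed within 1.5 times.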
